A study of Mus musculus with 2 samples.

Results

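The mitochondrially encoded transcripts were taken as every row of the count table whose mouse symbol starts with mt-. The mouse mitochondrial genome holds 37 such genes in the GENCODE M21 annotation, namely 13 mRNAs, 2 rRNAs and 22 tRNAs. Of these, 32 had a row among the 33757 rows of the table. They were the 13 mRNAs, both rRNAs and 17 of the 22 tRNAs, while mt-Tn, mt-Td, mt-Tk, mt-Tg and mt-Th matched no row.

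The cells were NIH3T3-Rev-VNP1-H2B-iRFP fibroblasts, a derivative of the mouse embryonic fibroblast line NIH3T3 that carries a fluorescent Venus reporter of the clock gene Nr1d1 and an iRFP (near-infrared) tag on histone H2B. All cells came from unsynchronized cultures near confluency, and no treatment was named. Single cells were sorted into 2 plates of 384 wells and sequenced by FLASH-seq, which reads cDNA made over the full length of polyadenylated RNA. Plate 1 held only the High RFP sort and plate 2 only the Low RFP sort. On each plate 4 gates divided the cells by Venus brightness, numbered here from gate 1 (dimmest) to gate 4 (brightest), and each gate filled its own 6 columns of wells. The iRFP sort and the plate therefore cannot be told apart, and neither can the Venus gate and the position on the plate. The labels do not say whether the reporter line was 1 clone.

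Mitochondria carry a small circular genome that is transcribed from both strands into long precursor RNAs. In the usual model, tRNAs lie between most of the longer genes, and their excision frees the rRNAs and mRNAs. The mRNAs encode core subunits of complexes I, III and IV of the respiratory chain and of the ATP synthase, the rRNAs belong to the mitochondrial ribosome, and all the other proteins of mitochondrial gene expression are made from nuclear genes. The share of mitochondrial counts is widely used as a quality measure of single cells.

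A total of 762 of 768 cells passed the filter, 383 on plate 1 and 379 on plate 2, with 151173 to 1618022 counts per cell. These cells gave 8 sums, 1 for each Venus gate of each plate, of 76042157 to 86612194 counts. Levels are given as CPM (a gene's counts scaled to a common library total, per 1e6 counts of all genes), and as CPM per kilobase where genes are compared with each other. No molecular identifiers were described, so reads are not independent molecules and all intervals cover counting error only. The median cell had 835930 counts and 11106 genes detected on plate 1 and 857229 counts and 11096 genes on plate 2. All 10 fibroblast markers examined were above 1 CPM on both plates and summed to 24141 and 24110 CPM, against 4.32 and 5.61 CPM for the epithelial list, 7.76 and 8.67 CPM for the immune list (nearly all Lyz2), 1.74 and 3.80 CPM for the muscle list and 0.605 and 0.582 CPM for the endothelial list. Cells carry a plate and well name in place of a barcode, so there were no barcodes to compare between the libraries. In a sum over cells, fewer cells of a type and less RNA per cell cannot be told apart.

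Several of the genes have near-identical copies in the nuclear genome, and reads from shared stretches cannot be told apart by sequence. Every 75-base window of each gene, a length chosen here because the read length is not given in the sources used here, was searched on both strands in the annotated nuclear transcripts of GENCODE M21 (mouse build GRCm38). For mt-Co2, 99.5% of the windows occurred exactly in a nuclear transcript, for mt-Atp6 99.5%, for mt-Co3 99.9%, for mt-Nd4l 98.7% and for mt-Nd3 97.8%. The share was 61.5% for mt-Nd4, 39.8% for mt-Co1, 5.71% for mt-Nd2 and 1.66% for mt-Nd5. No window of mt-Rnr1, mt-Rnr2, mt-Nd1, mt-Nd6, mt-Cytb or mt-Atp8 was found. Unannotated copies were not searched.

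The longest run of copies was a group of 7 unprocessed pseudogenes spanning 4663 bases of chromosome 1, in which Gm28661, Gm10925, Gm28437 and Gm10222 equalled the aligned parts of mt-Co2, mt-Atp6, mt-Co3 and mt-Nd4l base for base. Gm28439 likewise equalled the first 876 bases of mt-Nd4. The first 60 bases of mt-Nd3 (subunit of complex I; chrM:9459-9806, plus strand, GRCm38) are shown beside those of its copy Gm28438 because the pair differed by a single substitution over 345 aligned bases, T3C, in capitals. Positions are counted from 1 at the 5′ end of the mitochondrial gene, and the mitochondrial base comes first.
mt-Nd3: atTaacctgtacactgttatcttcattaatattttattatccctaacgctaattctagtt
Gm28438: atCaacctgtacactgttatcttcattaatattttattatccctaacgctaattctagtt

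The nuclear copy of mt-Co1 (catalytic subunit of complex IV; chrM:5328-6872, plus strand, GRCm38) on chromosome 1 begins inside the gene. Gm29216 aligned to bases 1054 to 1545 of mt-Co1 with 6 substitutions. All 6 lay at the start of the copy (T1056A, C1057T, A1059G, A1060G, C1062A and A1066T), so this stretch is shown with the substituted bases in capitals.
mt-Co1: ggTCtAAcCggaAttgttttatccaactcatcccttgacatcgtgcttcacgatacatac
Gm29216: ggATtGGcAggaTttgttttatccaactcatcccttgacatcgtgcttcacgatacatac

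mt-Nd4l (subunit of complex I; chrM:9877-10173, plus strand, GRCm38) is shown whole as the lowest of the mRNAs. The capitals mark the last 3 bases, the only part outside its copy Gm10222.
mt-Nd4l: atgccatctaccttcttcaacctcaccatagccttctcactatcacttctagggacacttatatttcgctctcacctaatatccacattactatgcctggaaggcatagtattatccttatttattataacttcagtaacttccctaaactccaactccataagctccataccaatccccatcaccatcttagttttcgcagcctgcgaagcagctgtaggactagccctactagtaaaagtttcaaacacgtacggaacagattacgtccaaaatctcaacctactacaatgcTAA

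mt-Atp8 (subunit of the ATP synthase; chrM:7766-7969, plus strand, GRCm38) had no annotated copy of its own. It lies between mt-Co2 and mt-Atp6, and the 233 bases between those 2 genes equalled in length the 233 bases between their copies Gm28661 and Gm10925. The sequence of that nuclear gap was not analysed here. The capitals mark the 43 bases of mt-Atp8 that also belong to mt-Atp6.
mt-Atp8: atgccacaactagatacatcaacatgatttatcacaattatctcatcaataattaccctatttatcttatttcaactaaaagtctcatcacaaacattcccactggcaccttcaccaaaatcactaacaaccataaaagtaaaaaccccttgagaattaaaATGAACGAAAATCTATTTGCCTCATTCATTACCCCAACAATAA

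The measured level fell into a high and a very low class, and the low class was the genes covered by nuclear copies, with mt-Atp8 beside them. Per kilobase, mt-Rnr2 was highest at 27555 CPM, followed by mt-Nd1 at 21447 CPM, mt-Cytb at 7722 CPM, mt-Nd5 at 2800.5 CPM, mt-Co1 at 2298 CPM, mt-Nd4 at 1308 CPM, mt-Nd2 at 1240 CPM, mt-Nd6 at 806 CPM and mt-Rnr1 at 504 CPM. Among these neighbours in rank the ranges over the 8 sums overlapped for mt-Rnr2 with mt-Nd1 and for mt-Nd4 with mt-Nd2, and for no other pair. The other 6 mRNAs lay between 3.21 CPM per kilobase for mt-Nd4l and 16.1 for mt-Atp6, with mt-Co2 at 7.05, mt-Atp8 at 10.9, mt-Co3 at 4.73 and mt-Nd3 at 8.70. The plot of levels and window shares sets the gap between the classes beside the shares.

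**Figure D1:**
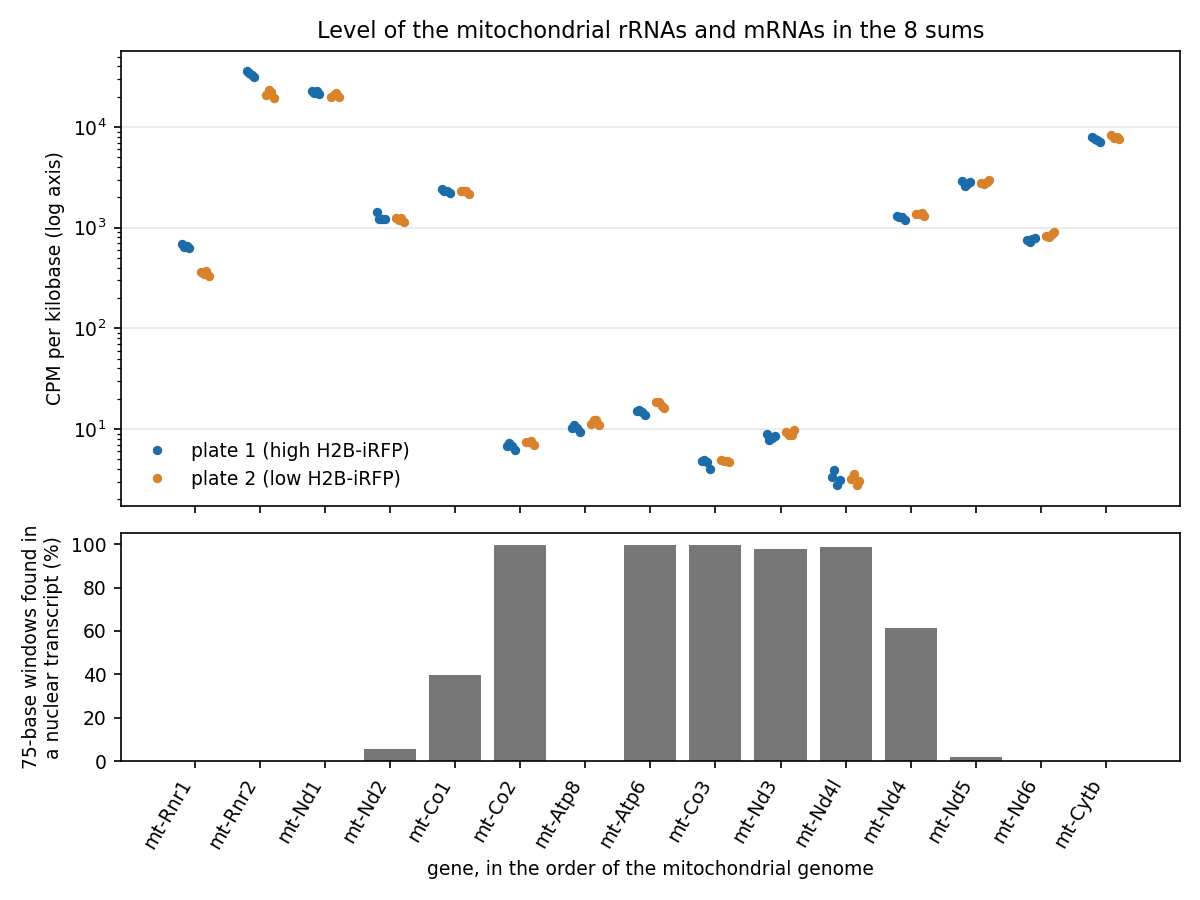
The upper panel gives CPM per kilobase (log axis) of the 2 rRNAs and 13 mRNAs in the 4 sums of each plate, 1 point per sum, and the lower panel the percent of each gene's 75-base windows found in a nuclear transcript. The 5 genes with over 97% of windows in a copy, and mt-Atp8, lie between 3.21 and 16.1 CPM per kilobase over all cells.

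Of the 5 genes with over 97% of windows in a copy, 4 had a copy with a row, and these copies were counted at levels of the same order as their genes. On plate 1 mt-Atp6 had 10.1 CPM and Gm10925 10.1 CPM, and on plate 2 they had 11.9 and 11.4 CPM. Gm28437 had 3.18 and 3.61 CPM on the plates against 3.64 and 3.77 CPM for mt-Co3. Gm10222, at 2.30 and 2.49 CPM, exceeded mt-Nd4l at 0.982 and 0.927 CPM. Gm28661 had 3.13 and 3.60 CPM against 4.65 and 5.00 CPM for mt-Co2. Copies of the genes covered in part were counted far below their genes. Gm28439, which copies part of mt-Nd4, had 4.16 and 4.79 CPM against 1733 and 1872 CPM for that gene. Gm13340 and Gm29216 had 4.17 and 2.501 CPM on plate 1 against 3561 CPM for mt-Co1, and the copies of mt-Nd2 and mt-Nd5 had at most 1.33 CPM on either plate. Reads within a stretch that gene and copy share exactly cannot be told apart by sequence. The levels of mt-Co2, mt-Co3, mt-Atp6, mt-Nd3 and mt-Nd4l are therefore uncertain, and those of mt-Nd4 and mt-Co1 partly so. What part the handling of such reads had in the low levels was not tested.

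The rRNAs took just over 1 in 2 of the mitochondrial counts, 51.5% over both plates. mt-Rnr2, the large-subunit rRNA of the mitochondrial ribosome, alone made 50.9%, and mt-Rnr1, the small-subunit rRNA, 0.562%. The ribosome holds 1 copy of each, while the level per kilobase in these libraries differed between 504 and 27555 CPM. Among the mRNAs mt-Nd1 held 23.97% of the mitochondrial counts, mt-Cytb 10.3%, mt-Nd5 5.97%, mt-Co1 4.15%, mt-Nd4 2.10%, mt-Nd2 1.503% and mt-Nd6 0.488%. The remaining 6 mRNAs held between 0.00111% (mt-Nd4l) and 0.0128% (mt-Atp6) each. The 9 members above 0.1% are described below in every sum, and the others by range.

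The summed mitochondrial share was higher on plate 1 than on plate 2 in every gate. In gates 1 to 4 it was 10.1%, 9.61%, 9.51% and 9.05% on plate 1 and 7.42%, 7.84%, 7.85% and 7.11% on plate 2, so the plates did not overlap. Over all passing cells the share was 9.57% (95% exact binomial interval 9.56 to 9.57) on plate 1 and 7.56% (7.56 to 7.56) on plate 2, a 1.27-fold ratio. With 1 plate per sort there is no test of this difference.

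The difference between the plates lay in the rRNAs. The 2 rRNAs took 5.37% of all counts on plate 1 and 3.44% on plate 2, a ratio of 1.56, while the 13 mRNAs took 4.19% and 4.12%, a ratio of 1.02. Of the difference of 2.01 percentage points in the summed share, mt-Rnr2 alone made up 94.8% and the 13 mRNAs together 3.82%. The ratio of rRNA to mRNA counts in gates 1 to 4 was 1.30, 1.33, 1.24 and 1.25 on plate 1 and 0.816, 0.918, 0.841 and 0.771 on plate 2.

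mt-Rnr2 stood at 56427, 54275, 52024 and 49742 CPM in gates 1 to 4 of plate 1 and at 33007, 37209, 35495 and 30622 CPM on plate 2. The lowest gate of plate 1 was above the highest of plate 2. Its ratio over all cells was 1.56 (95% counting interval 1.56 to 1.56), with log2 ratios of 0.54 to 0.77 in the 4 gates.

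mt-Rnr1 stood at 657, 609, 632 and 603 CPM on plate 1 and at 348, 333, 356 and 313 CPM on plate 2, again without overlap. Its ratio was 1.85 (interval 1.84 to 1.86), with log2 ratios of 0.83 to 0.95 in the gates. Both rRNAs are encoded at the start of the heavy-strand transcripts, and neither had a window in a nuclear transcript.

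Over all 18430 genes tested, many of them with few counts, mt-Rnr1 ranked 354 and mt-Rnr2 ranked 662 by plate ratio. Past 1.2-fold between plates were 4 of the 19 members tested, near the background of 27.0% of all genes tested (10.4% higher on plate 1 and 16.6% lower). Those 4 were both rRNAs, mt-Tp, and mt-Tt, which was lower on plate 1. mt-Tp and mt-Tt, the tRNAs for proline and threonine, rested on 111 and 91 counts. Higher by more than 1.2-fold in all 4 gates were 3 of the 19 (both rRNAs and mt-Tp), where 1.13% of all genes tested were. Among the 1835 genes with a mean of at least 100 CPM, a level chosen after the values were seen, 3.32% were past 1.2-fold (1.31% higher on plate 1 and 2.02% lower), and the members past it were 2 of 9. Only 0.436% of these genes were past 1.2-fold and higher on plate 1 in all 4 gates, and both rRNAs were among them. Within these 1835 genes mt-Rnr1 ranked 1 and mt-Rnr2 ranked 2 by ratio.

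No mRNA passed 1.2-fold, and the members stood on both sides of equality. The median log2 ratio of the 1835 genes was -0.05, so values near it stand with the bulk of genes. mt-Nd1, a membrane subunit of complex I, stood at 22066, 20845, 21856 and 20151 CPM on plate 1 and 19072, 19816, 21048 and 19220 CPM on plate 2. Its ratio was 1.07 and higher on plate 1 in 4 of 4 gates, although the ranges of the plates overlapped.

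mt-Nd2, another membrane subunit of complex I, stood at 1486, 1255, 1279 and 1260 CPM on plate 1 and 1281, 1247, 1308 and 1182 CPM on plate 2. The high value was gate 1 of plate 1, and the other sums overlapped. mt-Co1 stood at 3709, 3541, 3606 and 3387 CPM on plate 1 and 3614, 3610, 3578 and 3359 CPM on plate 2. Its plates overlapped throughout, with a ratio of 1.01. Leaving out gate 1 turned its log2 ratio from 0.0084 to -0.00053.

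mt-Nd5, a complex I subunit of the proton-pumping arm, stood at 5348, 4754, 4928 and 5143 CPM on plate 1 and 5121, 4962, 5200 and 5440 CPM on plate 2, with overlap. mt-Cytb, the cytochrome b of complex III, stood at 9195, 8658, 8557 and 8153 CPM on plate 1 and 9467, 8925, 9081 and 8629 CPM on plate 2. In each gate plate 1 was the lower, with a ratio of 0.957. mt-Nd4, a complex I subunit like mt-Nd5, stood at 1786, 1749, 1756 and 1637 CPM on plate 1 and 1874, 1885, 1913 and 1811 CPM on plate 2, with a ratio of 0.926 and no overlap.

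mt-Nd6 had the lowest plate ratio of the 9 abundant members. It stood at 395, 371, 397 and 409 CPM on plate 1 and at 433, 421, 453 and 466 CPM on plate 2, with a ratio of 0.885 (interval 0.878 to 0.891). The plates did not overlap, in the direction opposite to the rRNAs. Among the 6 low mRNAs the ratios ran from 0.848 for mt-Atp6 to 1.06 for mt-Nd4l. The plot of plate ratios shows the rRNAs apart from all mRNAs.

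**Figure D2:**
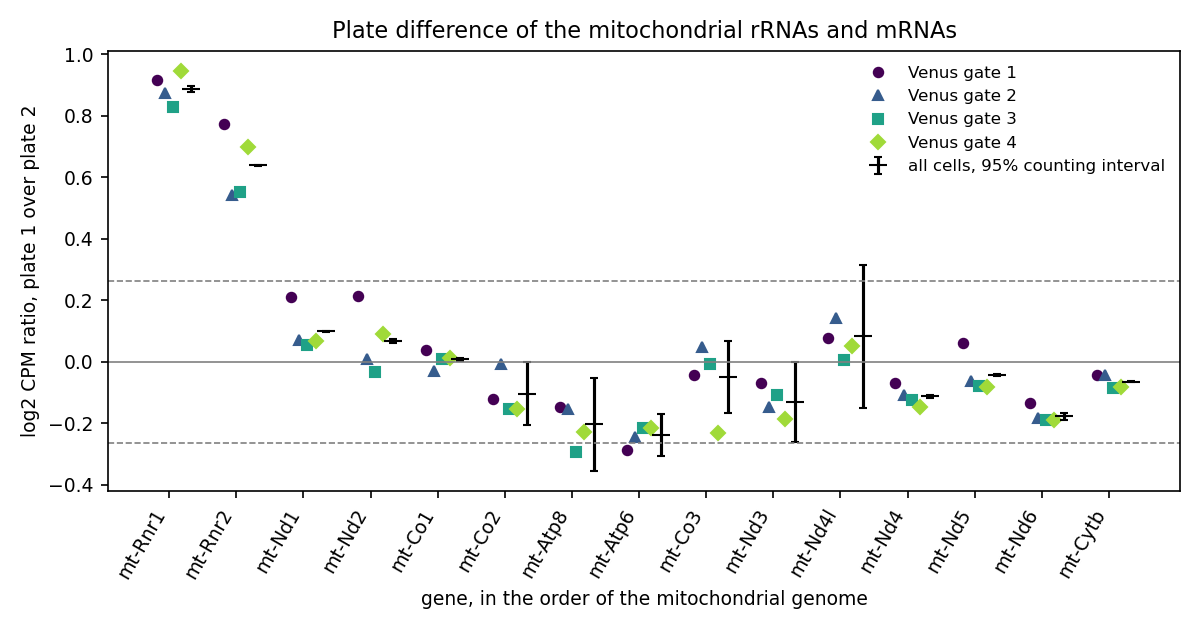
Log2 ratio of CPM, plate 1 over plate 2, for the 2 rRNAs and 13 mRNAs in each Venus gate (coloured symbols) and over all passing cells (black, with the 95% counting interval). Dashed lines mark 1.2-fold. mt-Rnr1 and mt-Rnr2 lie above the upper line in all 4 gates, and mt-Nd6 lies below 0 in all 4.

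The same split was seen cell by cell. The rRNA share of a cell ranged from 0.287% to 11.9% with a median of 5.15% on plate 1, and from 1.62% to 8.25% with a median of 3.37% on plate 2. Of the 383 plate 1 cells, 357 were above the plate 2 median. For the mRNAs the medians were 4.13% and 4.04%, and 210 of the 383 plate 1 cells were above the plate 2 median. mt-Rnr1 separated the plates furthest, with medians of 589 and 324 CPM and 381 of 383 plate 1 cells above the plate 2 median.

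The plate difference of the rRNAs was present across the whole plate. The median mt-Rnr2 level was higher on plate 1 in 24 of 24 columns and 16 of 16 rows of wells, as was that of mt-Rnr1. For the summed mRNAs this held in 15 of 24 columns and 12 of 16 rows, and for mt-Nd6 in 2 of 24 columns and 0 of 16 rows. The median iRFP intensity was 352729 on plate 1 and 152996 on plate 2. The nuclear-retained RNAs examined summed to 1990 CPM on plate 1 and 2120 CPM on plate 2, with Malat1 at 857 and 669 CPM and Neat1 at 1133 and 1451 CPM, in opposite directions. The stress list summed to 2100 and 1991 CPM, most of it the chaperone gene Hspa5 at 1471 and 1491 CPM. The other 4 stress genes were all higher on plate 1, with Trib3 at 104 and 64.9 CPM, Ddit3 at 144 and 104 CPM, Atf4 at 378 and 329 CPM and Atf3 at 3.0 and 2.16 CPM. The part of these, of the iRFP sort and of plate handling in the rRNA difference was not tested.

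**Figure D3:**
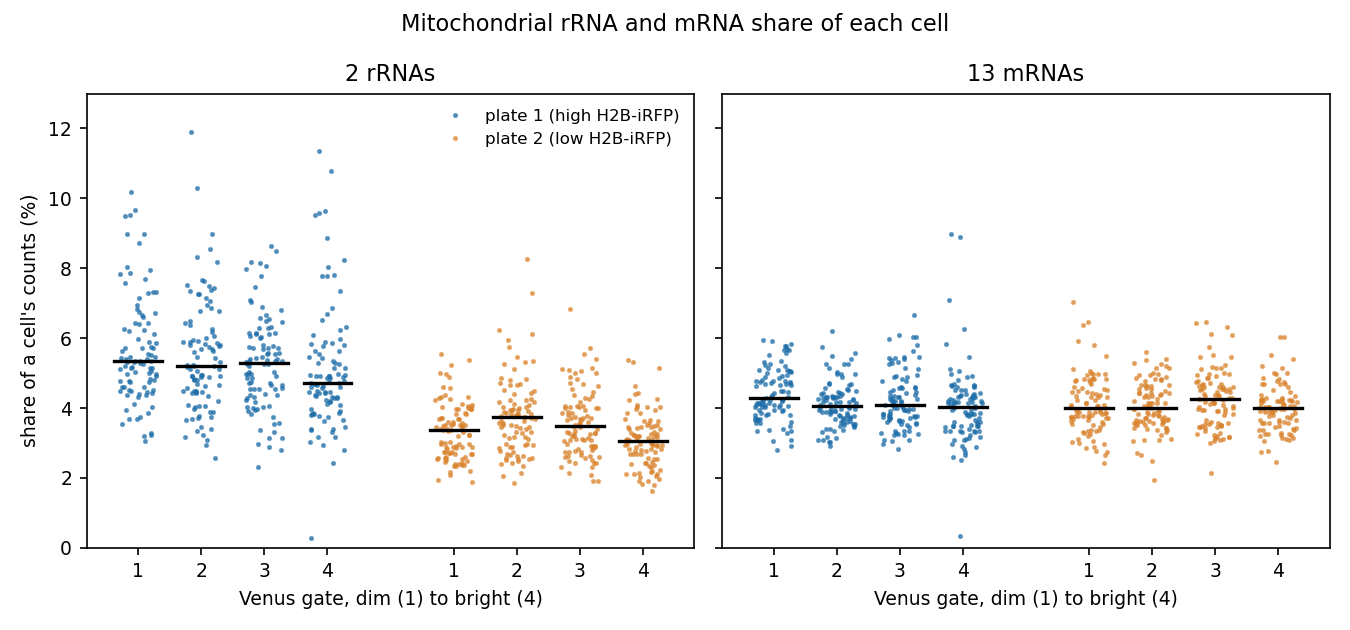
Share of each cell's counts (percent) taken by the 2 rRNAs (left) and the 13 mRNAs (right), 1 point per passing cell, by plate and Venus gate, with the median as a bar. The rRNA medians of plate 1 lie between 4.72% and 5.34% and those of plate 2 between 3.06% and 3.75%, while the mRNA medians of both lie between 3.99% and 4.30%.

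Cells with extreme shares were few. The highest mitochondrial share was 19.8%, in a gate 4 cell of plate 1 with 8643 genes detected, and no cell exceeded 25%. One gate 4 cell of plate 1 had a share of only 0.629%, with 588365 counts and 12637 genes detected. In that cell mt-Rnr2 was at 2558 CPM and mt-Nd1 at 1360 CPM. Without it, the slope of mt-Rnr2 over the gates of plate 1 moved from -0.061 to -0.058 log2 per gate, on library totals.

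Across the cells of a plate the mitochondrial share followed neither depth nor size closely. Its Spearman correlation with the total count was -0.052 on plate 1 (383 cells) and 0.042 on plate 2 (379 cells), and with forward scatter, an intensity that grows with cell size, -0.091 and 0.032. With the number of genes detected it was -0.37 and -0.19, and with Venus intensity -0.17 and -0.053. These are descriptions of cells that share a plate and a library preparation, and the share and the genes detected come from the same counts. The rRNA and mRNA shares of a cell correlated at 0.55 and 0.64.

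Along the Venus gates, the question was whether mitochondrial transcripts follow the brightness of the clock reporter. The summed share changed by -0.034 log2 per gate, with -0.049 on plate 1 and -0.019 on plate 2. Without gate 4 it was -0.0023 (exact permutation p = 0.89), and without gate 1 it was -0.057 (exact permutation p = 0.11). With a gate left out, or with 1 plate alone, the arrangements are too few for a p below 0.05. The slope over all 4 gates was not distinguishable from a reordering of gates within plates (exact permutation test, two-sided, p = 0.118 over all arrangements, which allow no p below 0.00347). The ratio of rRNA to mRNA counts changed by -0.031 log2 per gate (exact permutation p = 0.274). For the 17 tRNAs alone the slope was -0.16 (exact permutation p = 0.0313, not adjusted), on 1463 counts in all, 62.9% of them mt-Tq. The tRNA share was 0.000325% in gate 1 of plate 1, against 0.000189% to 0.000245% in the other sums.

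Gene by gene, 3 of the 19 members tested fell toward the bright gates and none rose (edgeR quasi-likelihood test on the 8 sums, adjusted over 18430 genes). This share is near the background, since 15.4% of all genes tested were called in the trend, 8.64% lower and 6.78% higher. The other 13 members with a row had too few counts to be tested. The 3 were mt-Cytb, mt-Co1 and mt-Rnr2, and their changes were small. The median over the 19 members was -0.056 log2 per gate, against 0.00051 over all genes tested. The 8 sums are not separate cultures, so these p-values measure only the spread between sums.

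mt-Cytb changed by -0.063 ± 0.010 log2 per gate (SE), or -12.3% from gate 1 to gate 4 along the fitted slope (edgeR adjusted p = 0.0089). That percentage comes from the TMM-normalized fit and is not the change of the listed CPM. As listed above, gate 1 was the highest and gate 4 the lowest on both plates, and the slope was -0.054 log2 CPM per gate on plate 1 and -0.038 on plate 2. It was also the only member called for any difference among the gates (edgeR adjusted p = 0.035), where 8.37% of all genes were called.

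mt-Co1 changed by -0.052 ± 0.011 log2 per gate (edgeR adjusted p = 0.019), and gate 4 was the lowest on both plates. mt-Rnr2 changed by -0.068 ± 0.018 (edgeR adjusted p = 0.045). On plate 1 it was lower in each brighter gate, while on plate 2 it was highest in gate 2 and lowest in gate 4. Without TMM normalization mt-Rnr2 lost its call (edgeR adjusted p = 0.087), and with limma on mean CPM over cells all 3 did (adjusted p of 0.11 to 0.27). With plate 2 alone none of the 3 was called (edgeR adjusted p of 0.58 to 0.75), and only 0.0217% of all genes tested were. With plate 1 alone mt-Rnr2 was called (edgeR adjusted p = 0.041) and mt-Cytb and mt-Co1 were not (0.083 and 0.20), where 1.22% of all genes were. Without the plate term mt-Rnr2 and mt-Co1 were not called (edgeR adjusted p of 0.75 and 0.12). With gate as a number in an additive model these 2 were not either (0.12 and 0.066).

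The other 6 abundant members did not pass the test, although DESeq2 called mt-Rnr1 (adjusted p = 0.024) and mt-Nd2 (0.015), and edgeR without the low-count filter called mt-Nd2 (0.027). The estimates were -0.051 for mt-Rnr1, -0.066 for mt-Nd2, -0.042 for mt-Nd4, -0.028 for mt-Nd1, -0.0069 for mt-Nd5 and 0.016 for mt-Nd6 log2 per gate, with edgeR adjusted p-values of 0.062 to 0.82. mt-Nd6 was the only mRNA or rRNA with an estimate above 0, although its sign was not stable, at -4.6e-05 with plate 1 alone. The 6 low mRNAs lay between -0.088 (mt-Nd4l) and -0.018 (mt-Nd3) with none called.

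**Figure D4:**
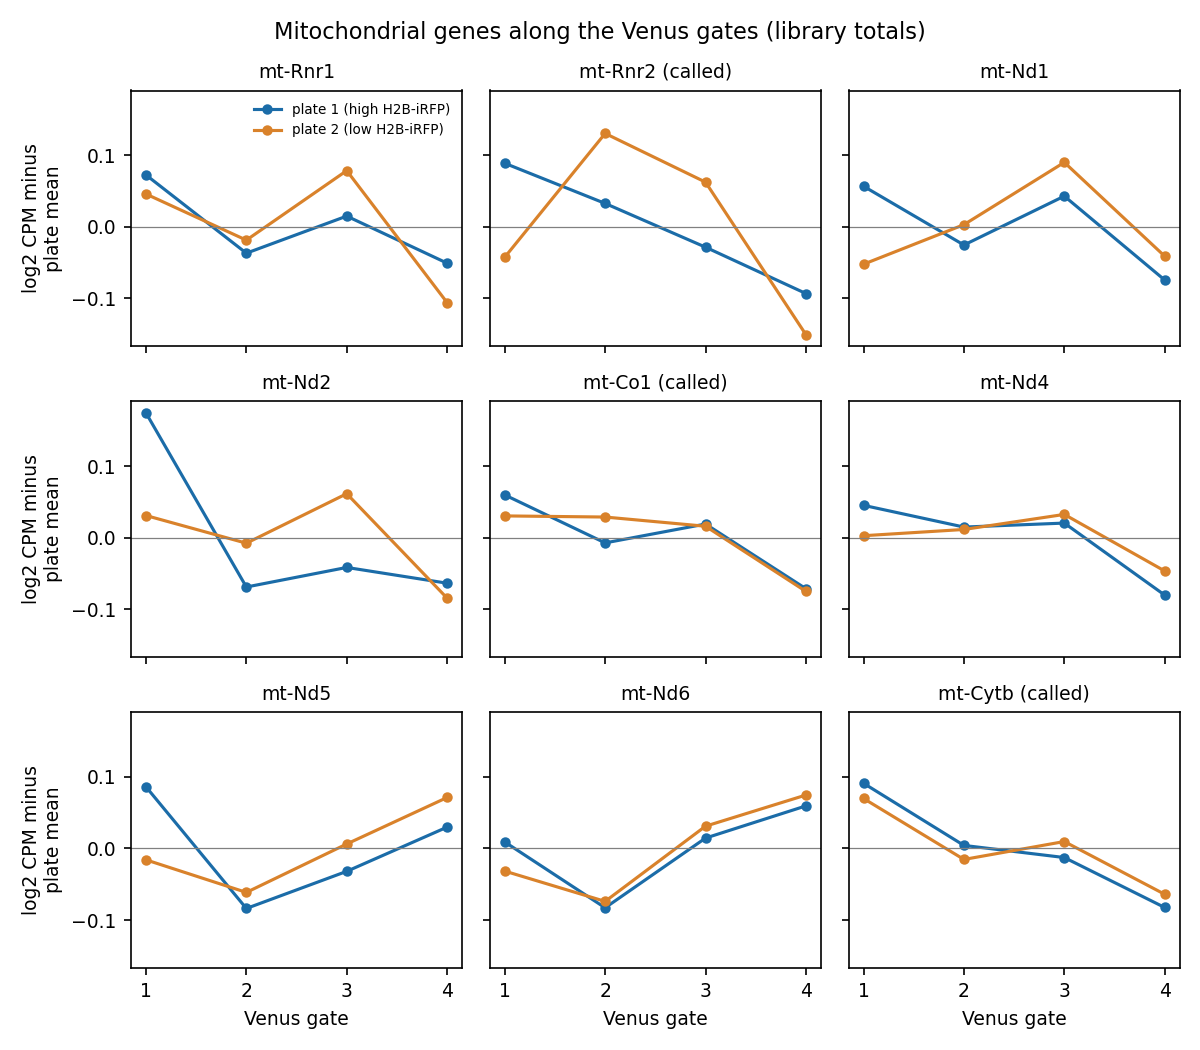
Log2 CPM (library totals) of the 9 members above 0.1% of mitochondrial counts in each Venus gate, minus the mean of the plate, with plate 1 in blue and plate 2 in orange. mt-Cytb falls from gate 1 to gate 4 on both plates, with slopes of -0.054 and -0.038, while mt-Nd5 and mt-Nd6 are lowest in gate 2 of both plates.

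mt-Nd6 is the only mRNA encoded on the light strand and makes a subunit of complex I. Its level per kilobase ran from 714 to 899 CPM over the 8 sums, below the heavy-strand neighbours mt-Nd5 (2606 to 2982) and mt-Cytb (7127 to 8276). mt-Nd5 and mt-Nd6 overlap by 14 bases on opposite strands. The strand setting of the counting is not given in the sources used here, so reads of mt-Nd6 and of antisense RNA from the other strand cannot be told apart.

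The tRNAs were nearly uncounted. Together the 17 with a row held 1463 counts, 0.00266% of the mitochondrial counts, with 1 to 920 counts each and a median of 36. mt-Tq, the light-strand tRNA for glutamine, held 62.9% of them. The light-strand tRNAs with a row held 1174 counts, 920 of them mt-Tq, against 289 for the heavy-strand ones. The excess in summed counts therefore lay in mt-Tq. The strands differ in the number of tRNAs with a row, and counts per gene were not compared. As for mt-Nd6, the strand setting of the counting is not given, so antisense reads cannot be told apart. mt-Tq was seen in 66.8% of plate 1 cells and 67.5% of plate 2 cells, and in 47.9% and 49.2% when each cell was thinned to 500000 counts (12 shallower cells left out, 3 and 9 per plate). It and its neighbour mt-Ti, the heavy-strand tRNA for isoleucine at 61 counts, overlap by 3 bases on opposite strands. Both are shown with the shared bases in capitals, each in its own sense (mt-Tq is 71 bases, mt-Ti 69).
mt-Tq: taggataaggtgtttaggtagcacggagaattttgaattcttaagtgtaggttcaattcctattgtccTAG
mt-Ti: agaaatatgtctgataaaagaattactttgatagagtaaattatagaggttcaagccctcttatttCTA

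In the sums mt-Tq ranged from 1.16 to 2.13 CPM and every other tRNA stayed at or under 0.302 CPM. None of the 4 tRNAs tested was called along the gates. In all cells together 3 of the 17, mt-Tw, mt-Ty and mt-Te, had at most 3 counts.

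The mRNAs varied together from cell to cell, but unequally. Over the 21 pairs of the 7 abundant mRNAs, the Spearman correlation of CPM had a median of 0.56 on plate 1 (0.23 to 0.85) and 0.55 on plate 2 (0.21 to 0.90). The pairs at the top were mt-Nd5 with mt-Nd6, at 0.85 and 0.86, mt-Cytb with mt-Co1, at 0.85 and 0.85, and mt-Nd4 with mt-Cytb, at 0.84 and 0.90. mt-Nd5 and mt-Nd6 are neighbours on opposite strands, whereas mt-Cytb lies far from mt-Co1. As given above, the mt-Nd6 counts may hold antisense RNA from the strand that encodes mt-Nd5.

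The pair at the bottom was mt-Nd1 with mt-Cytb, the 2 most counted mRNAs, at 0.23 on plate 1 and 0.21 on plate 2. mt-Nd1 was closest to its neighbour mt-Nd2, at 0.74 and 0.68. The rRNAs correlated with each other at 0.49 and 0.53, and with the mRNAs at medians of 0.46 and 0.50. Ranking within Venus gates gave medians of 0.58 and 0.55 for the mRNA pairs. These are descriptions, since the genes share each cell's library and total, and as shares of the mitochondrial mRNA counts, which must add up to 1 whole, the median was 0.068 and 0.0096.

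**Figure D5:**
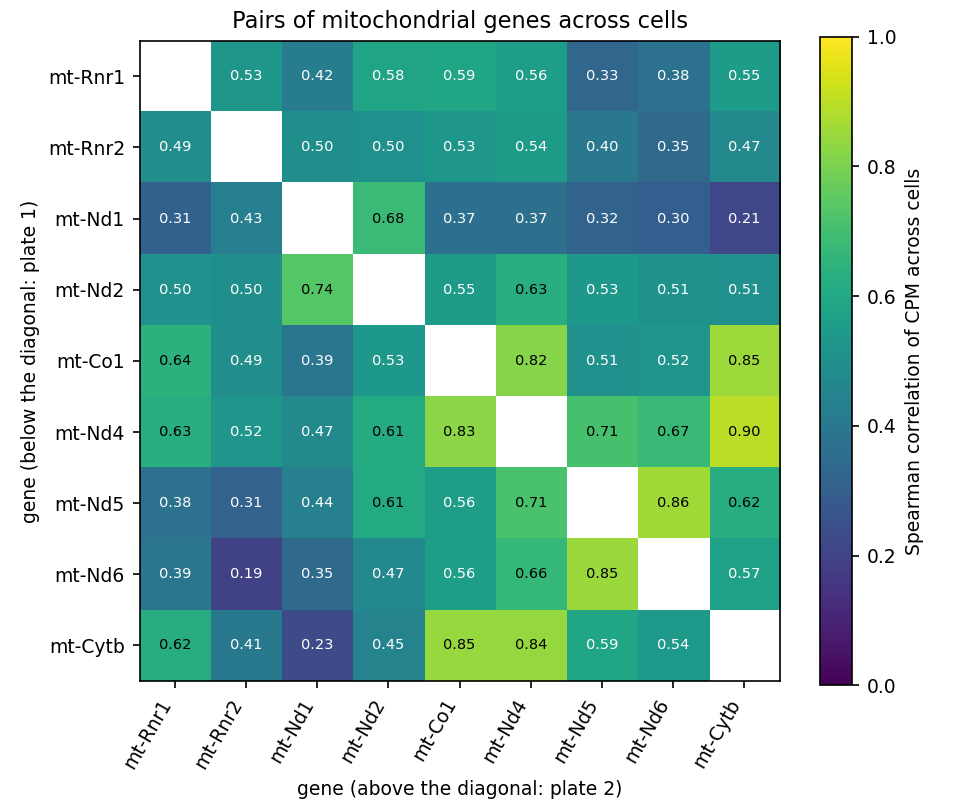
Spearman correlation of CPM across cells for pairs of the 9 abundant members, below the diagonal for the 383 cells of plate 1 and above it for the 379 cells of plate 2. mt-Co1, mt-Nd4 and mt-Cytb form the brightest block on both plates, and mt-Nd1 with mt-Cytb is among the darkest pairs.

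The nuclear genes that copy, transcribe, process and stabilize mitochondrial RNA were taken from a list of 40, of which 39 were tested. Along the Venus gates 6 were called, 4 higher and 2 lower toward the bright gates, a share at the background of 15.4%. None of the 10 transcription genes (such as Polrmt, the mitochondrial RNA polymerase, and Tfam, which packages and activates the genome) and none of the 6 replication genes was called. The edgeR adjusted p was 0.88 for Polrmt and 0.72 for Tfam. An unadjusted p under 0.05 (edgeR) was seen for 12 of the 39, among them 4 of the 10 transcription genes. The share of all genes at that threshold was not computed, and the 15.4% is for adjusted calls, so this count has no background. Those 4 transcription genes were Mterf2, Mterf3, Mterf1a and Mterf1b, of a family named for transcription termination. Their estimates were -0.095, -0.095, -0.12 and -0.18 log2 per gate, with edgeR adjusted p-values of 0.060 to 0.11. Mterf4, of the same family and list, went the other way at 0.020 (edgeR adjusted p = 0.68). Mterf1a and Mterf1b are close paralogs, so their separate counts are uncertain.

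Lrpprc, which stabilizes mitochondrial mRNAs, rose by 0.10 ± 0.020 log2 per gate (edgeR adjusted p = 0.016). It went from 80.2 to 95.5 CPM between gates 1 and 4 on plate 1 and from 79.6 to 106 CPM on plate 2. Tbrg4, a processing factor of the FASTK family, rose by 0.15 ± 0.029 (adjusted p = 0.016, edgeR). Gabpa, a transcription factor of nuclear genes for respiration, rose by 0.14 ± 0.030, and Ppargc1b, a coactivator of such genes, by 0.25 ± 0.057, from only 2.52 to 4.02 CPM on plate 1 and 3.10 to 5.72 CPM on plate 2.

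The 2 that fell were Fastk, another member of the FASTK family, at -0.090 ± 0.019, and Hsd17b10, a subunit of the mitochondrial RNase P, at -0.086 ± 0.020 log2 per gate. Adjusted edgeR p-values of the last 4 genes were 0.021 to 0.028. Fastk lost its call without TMM normalization (edgeR adjusted p = 0.053), and with either plate alone none of the 6 was called. Of all genes tested, only 1.22% were called with plate 1 alone and 0.0217% with plate 2 alone. Between the plates 2 of the 39 were past 1.2-fold, with a median log2 ratio of -0.081. That fold was passed by 27.0% of all genes tested, many of them with few counts. Among genes with a mean of at least 100 CPM it was 3.32%. Most of the 39 lay below 100 CPM, and no share for genes of their level was computed.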

How the data were processed

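The deposited table holds raw counts per gene and cell, and the deposited sorting record holds scatter and fluorescence intensity per cell, the gate and an image name stating the RFP sort. Per the submitters' processing notes, GRCm39 (mm39), STAR 2.7.11a, SAMtools, bedtools and HTSeq were used, in roles that are not stated. The annotation, the strand setting and the handling of reads with several matches are not given in the sources used here. Reads shared with nuclear copies can be lost or split by such settings, which moves the levels of the genes concerned.

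Symbols were matched by gene ID. Rows without a symbol held 1.07% of counts. Of the 32 member rows, 30 have the identifier version of GENCODE M21 (GRCm38), from which lengths, overlaps, coordinates and sequences were taken. Cells with at least 1000 genes and 0.1 of the plate median total were kept, with no cap on the mitochondrial share. No doublet caller was run, since wells were sorted singly per the labels. Gates were ordered by median Venus intensity.

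The gate trend used edgeR 4.0.16 in R 4.3.3 (TMM, filterByExpr, gate and plate as terms, 3 residual degrees of freedom, linear contrast, Benjamini-Hochberg adjustment, threshold 0.05). It was tested on simulated sums without a plate effect and with larger changes than those of the members called. Changes as small as theirs were not simulated. Slopes within a plate are of log2 CPM (prior count 2) and are untested. Shares were compared by exact permutation of gates within plates. Plate values have no test, and their intervals are exact binomial (95%). Alternatives used DESeq2 1.42.0, limma 3.58.1 (pseudocount 1 CPM), other filters, denominators, thinning and left-out gates or plates. Values in every sum are given for members with at least 0.1% of mitochondrial counts or a call in a gate test, and of the machinery list the called genes are named. Polrmt and Tfam as examples, 4 Mterf genes after their values were seen, and Mterf4 beside those 4, were named in addition. The members and lists were chosen with earlier results of these data known.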

Additional observations from a re-analysis of the deposited data

Results flagged for a closer look

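The slope over the Venus gates had opposite signs on the plates for 2 of the 9 abundant members. mt-Nd1 changed by -0.032 log2 CPM per gate on plate 1 and by 0.012 on plate 2. mt-Nd5 changed by -0.012 on plate 1 and by 0.033 on plate 2. A test of the difference between the slopes, added after the values were seen, called neither gene (edgeR, plate by gate term, unadjusted p = 0.17 for mt-Nd1 and 0.13 for mt-Nd5, both with adjusted p = 1). It called 0 of 18430 genes, 638 of them at an unadjusted p under 0.05, and no other tool was run on it.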

How the results depend on the processing

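The plates carry no replicates, depth limits only the tRNAs and the low mRNAs, and the model rests on 8 sums. The 25% cap on the mitochondrial share removed no cell, and every alternative was run. The trend called 3 members and 15.4% of all genes. It called 5 with DESeq2 (19.4% of all genes) and 0 with limma on mean CPM (16.4%, 3 members at an unadjusted p under 0.05). It called 1 without the plate as a replicate block (9.13%) and 1 in an additive linear model (10.1%). With plate 1 alone it called 1 (1.22%) and with plate 2 alone 0 (0.0217%), where a lone plate is assumed to vary only around its own line. Any difference among gates was called for 1 member (8.37% of all genes), for 5 with DESeq2 (19.8%) and for 3 without the low-count filter (7.89%). It was called for 0 with limma (9.67%, 1 member unadjusted) and for 0 without the replicate block (2.66%, 1 member unadjusted). The share of all genes at an unadjusted p under 0.05 was not computed for these fits. Estimates changed sign for mt-Nd5 without TMM (0.010) and with limma (0.011), and with either plate alone they ran from -0.037 to 0.027 for mt-Nd5, from -0.057 to 0.0067 for mt-Nd1 and from -4.6e-05 to 0.036 for mt-Nd6, none of them called. Without TMM, calls over all genes were 1575 higher and 1152 lower, against 1250 and 1593. With either plate alone 0 of the 39 machinery genes were called (edgeR, 5 unadjusted on each), beside the 1.22% and 0.0217% of all genes given above.

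The slope of the summed share kept its sign under 16 alternatives (-0.16 to -0.0023), and only the tRNAs alone passed the threshold (-0.16). The slope of the rRNA to mRNA ratio stayed between -0.085 and -0.0045 with none past it. For both slopes, alternatives with a gate left out or with 1 plate alone have too few arrangements to pass it. The plate log2 ratio of the summed share was 0.34 and stayed above 0: 0.341 with the stricter cell filter, 0.342 after thinning, 0.32 as the median over cells, 0.306, 0.355, 0.363 and 0.336 leaving out gates 1 to 4 in turn, 0.027 for the mRNAs, 0.64 for the rRNAs, 0.065 for the tRNAs, and, chosen after seeing the data, 0.374 over nuclear counts and 0.365 without the 7 mRNAs with many copied windows. As the median over cells 2 members, not 4, were past 1.2-fold, since the tRNAs had a median of 0. The log2 ratio of mt-Rnr2 stayed within 0.60 to 0.67 and that of mt-Rnr1 within 0.86 to 0.92. The median mRNA pair correlation was 0.068 and 0.0096 as shares of mitochondrial mRNA counts, and 0.27 on plate 2 as shares of mitochondrial counts. Thinning moved the detection of mt-Tq to 47.9% and 49.2%. Except for thinning and for fits on fewer sums, the cause of these changes was not tested.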
